A study of Mus musculus with 33 samples.

Results

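The major urinary protein (Mup) genes Mup5, Mup6, Mup20 and Mup21 were described in mouse liver and liver tumours. These 4 genes, of 19057 genes named on the array, were chosen by their symbols from a family already seen to differ between groups in the authors' log2 values. They were read by 5 probes of 45281: 1 each for Mup6, Mup20 and Mup21, and 2 for Mup5. All 5 probes passed the filter on dim probes, which asked for a signal above background on at least 3 arrays. The Mup genes are near identical copies, so a probe may also bind transcripts of other family members, and the values are read as those of a family.

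Major urinary proteins are small lipocalins, barrel-shaped proteins that hold a volatile ligand. Hepatocytes secrete them into the blood, the kidney passes them into the urine, and there they carry scent signals between mice. Mup20, also known as darcin, is a male pheromone protein. Their transcription in the liver is higher in males, where growth hormone arrives in pulses and acts through its receptor and the transcription factor STAT5.

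The study examined 2 knockout models of the Hippo pathway, in which the kinases MST1 and MST2 and their scaffold protein SAV1 restrain growth. Expression was read from total RNA on 33 Illumina bead arrays (MouseWG-6 v2.0), each carrying 1 sample. The samples were 11 hepatocellular carcinomas and 7 surrounding livers labelled Sav1 -/-, 3 normal livers labelled Sav1 flox, 4 hepatocellular carcinomas and 3 surrounding livers labelled Mst1/2 -/-, 3 normal livers labelled Mst1/2 flox, and 2 normal livers labelled Wt. The labels give no age, sex, strain or Cre driver, and do not say whether replicates came from separate animals, so a p-value reflects only how far these samples spread, which may be technical in part. In bulk tissue, fewer cells of a type and less RNA per cell cannot be told apart.

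Between 35.08% and 52.81% of the probes on an array were above its background threshold, which ran from 80.62 to 109.1 signal units. The highest correlation between any pair of arrays was 0.993, so no 2 arrays held the same values. Whether any were repeats of 1 sample cannot be told from this. The probe for Sav1 averaged 9.05 ± 0.48 on the log2 scale in Sav1 -/- tumours (SD, n = 11) and 9.31 ± 0.33 in Sav1 flox livers (SD, n = 3). The probe for Stk4, which encodes MST1, averaged 9.81 ± 0.17 in Mst1/2 -/- tumours (SD, n = 4) and 9.69 ± 0.12 in Mst1/2 flox livers (SD, n = 3). Neither gene changed past the limma test in a knockout group against its floxed livers (adjusted p between 0.41 and 0.95). No source used here places these probes within or outside the deleted exons, so they do not check the labels.

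In RefSeq's annotation of mouse build GRCm38.p6, all 22 Mup genes were protein coding and lay in 1 cluster on chromosome 4, between 59956804 and 62150841, among 24 Mup pseudogenes. Mup6 lay at 60003481 to 60007274, Mup5 at 61831319 to 61858043, Mup20 at 62011337 to 62054143 and Mup21 at 62147832 to 62150841. Promoters were available for 14 of the 22 Mup genes, among them Mup6 and Mup21 but not Mup5 or Mup20. The 250 bases before the start are therefore shown for Mup6 and Mup21 only. They are credited to RefSeq and lie at chr4:60003231-60003480 on the plus strand and chr4:62150842-62151091 on the minus strand. Each reads 5′ to 3′, and capitals mark the motifs searched for on both strands.
Mup6: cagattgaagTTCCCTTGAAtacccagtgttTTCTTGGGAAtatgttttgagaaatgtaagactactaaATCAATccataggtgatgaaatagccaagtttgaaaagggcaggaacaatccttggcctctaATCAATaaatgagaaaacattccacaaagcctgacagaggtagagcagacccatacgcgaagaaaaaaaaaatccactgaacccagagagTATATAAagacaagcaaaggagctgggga
Mup21: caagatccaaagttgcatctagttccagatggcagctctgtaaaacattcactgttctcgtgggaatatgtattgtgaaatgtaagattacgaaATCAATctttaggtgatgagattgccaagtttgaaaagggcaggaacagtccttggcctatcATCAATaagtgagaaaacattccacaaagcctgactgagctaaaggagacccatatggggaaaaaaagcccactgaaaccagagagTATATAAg
The stretches were 83.0% identical over 230 aligned positions. A TATATAA box was found in both, as in 11 of 14 Mup promoters and 3.04% of 32851 promoters in the table. It lay 29 to 23 bases before the annotated start of Mup6 but 8 to 2 bases before that of Mup21. The 2 windows are therefore not placed alike with respect to the box. ATCAAT was found in 14 of 14 Mup promoters, against 6.72% of all promoters, and occurred at 2 places in each stretch shown. The STAT-type palindrome of TTC and GAA with 4 bases between them was found at 2 places before Mup6 and at none in the Mup21 window. It was present in 5 of 14 Mup promoters and 5.85% of all promoters. The form with 3 bases between was found in 0 of 14 Mup promoters and 7.02% of all. A match describes the letters only and is no evidence that a factor binds.

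The 4 member probes other than the dimmer one for Mup5 were among the brightest on the arrays of Wt and Sav1 flox livers, and their lowest signals were in Mst1/2 -/- tumours. Signals are given here in linear array units, as deposited. Mup6 read 373, 702, 5402 and 1879 in the 4 Mst1/2 -/- tumours, 42840, 28761 and 41241 in Mst1/2 -/- surrounding livers, and 43482, 41479 and 34325 in Mst1/2 flox livers. Every Mst1/2 -/- tumour was below every other Mst1/2 array, and tumour 3 had the highest signal of the 4. In the 11 Sav1 -/- tumours, Mup6 had a lowest signal of 3452, a median of 9162 and a highest of 48133, against 4985, 32752 and 49360 in the 7 Sav1 -/- surrounding livers. Sav1 flox livers read 39002, 33595 and 34789, and Wt livers read 44780 and 48776. The Sav1 -/- tumours thus spanned the range from far below normal liver to above the Sav1 flox livers, and overlapped both other Sav1 groups. By rank of log2 level on its array, Mup6 stood between 1104 and 8579 in Mst1/2 -/- tumours and between 16 and 28 in Wt livers.

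Mup20, the darcin gene, read 196, 204, 2401 and 1053 signal units in the Mst1/2 -/- tumours, against 20404, 8965 and 21949 in their surrounding livers and 14410, 14358 and 8230 in Mst1/2 flox livers. All 4 tumours were again below all other Mst1/2 arrays. In Sav1 -/- tumours its lowest, median and highest signals were 1411, 6466 and 39821, against 3782, 17633 and 39758 in surrounding livers. Sav1 flox livers read 21052, 13720 and 16488 and Wt livers 26082 and 28659. The highest Sav1 -/- tumour reached 15.02 on the normalised log2 scale, beside 15.03 in the higher Wt liver, so the tumours overlapped the normal livers.

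Of the 2 probes for Mup5, the brighter read 215, 186, 3377 and 1420 in Mst1/2 -/- tumours, against 27075, 16993 and 26191 in surrounding livers and 13983, 9565 and 6641 in Mst1/2 flox livers. Sav1 -/- tumours ran from 1795 through a median of 6842 to 39451, against 5086, 25182 and 49872 in surrounding livers and 21509, 15944 and 19825 in Sav1 flox livers. Wt livers read 21128 and 24163. The bright Mup5 probe thus ordered the groups much as Mup20 did. The dimmer Mup5 probe read 94, 95, 92 and 105 in Mst1/2 -/- tumours and was not well above background on any of those arrays. It read 409, 128 and 281 in Mst1/2 -/- surrounding livers, 625, 651 and 357 in Mst1/2 flox livers, and 1146 and 1188 in Wt livers. In the Sav1 line it was above background on 5 of 11 tumours, with a median signal of 99, and on 5 of 7 surrounding livers, with a median of 187, against 471, 308 and 407 in Sav1 flox livers. The 2 probes disagreed on Mst1/2 -/- surrounding livers, whose means were below those of floxed livers by the dim probe and above them by the bright one.

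Mup21 stood apart in the Mst1/2 flox livers. It read 173, 186, 1524 and 840 signal units in Mst1/2 -/- tumours, against 24197, 4610 and 16817 in surrounding livers and 1773, 2072 and 1243 in Mst1/2 flox livers. In Sav1 -/- tumours its lowest, median and highest signals were 769, 2253 and 25947, against 2508, 9912 and 29391 in surrounding livers. Sav1 flox livers read 37990, 15788 and 41150, and Wt livers 45376 and 49526. Mst1/2 flox livers were therefore far below the other normal livers for Mup21 but not for Mup6. Mup6 read 34325 to 43482 in these livers, on arrays whose highest signals of any probe ran from 54466 to 59355. Whether signals this near the top of the range are compressed was not tested.

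**Figure D1:**
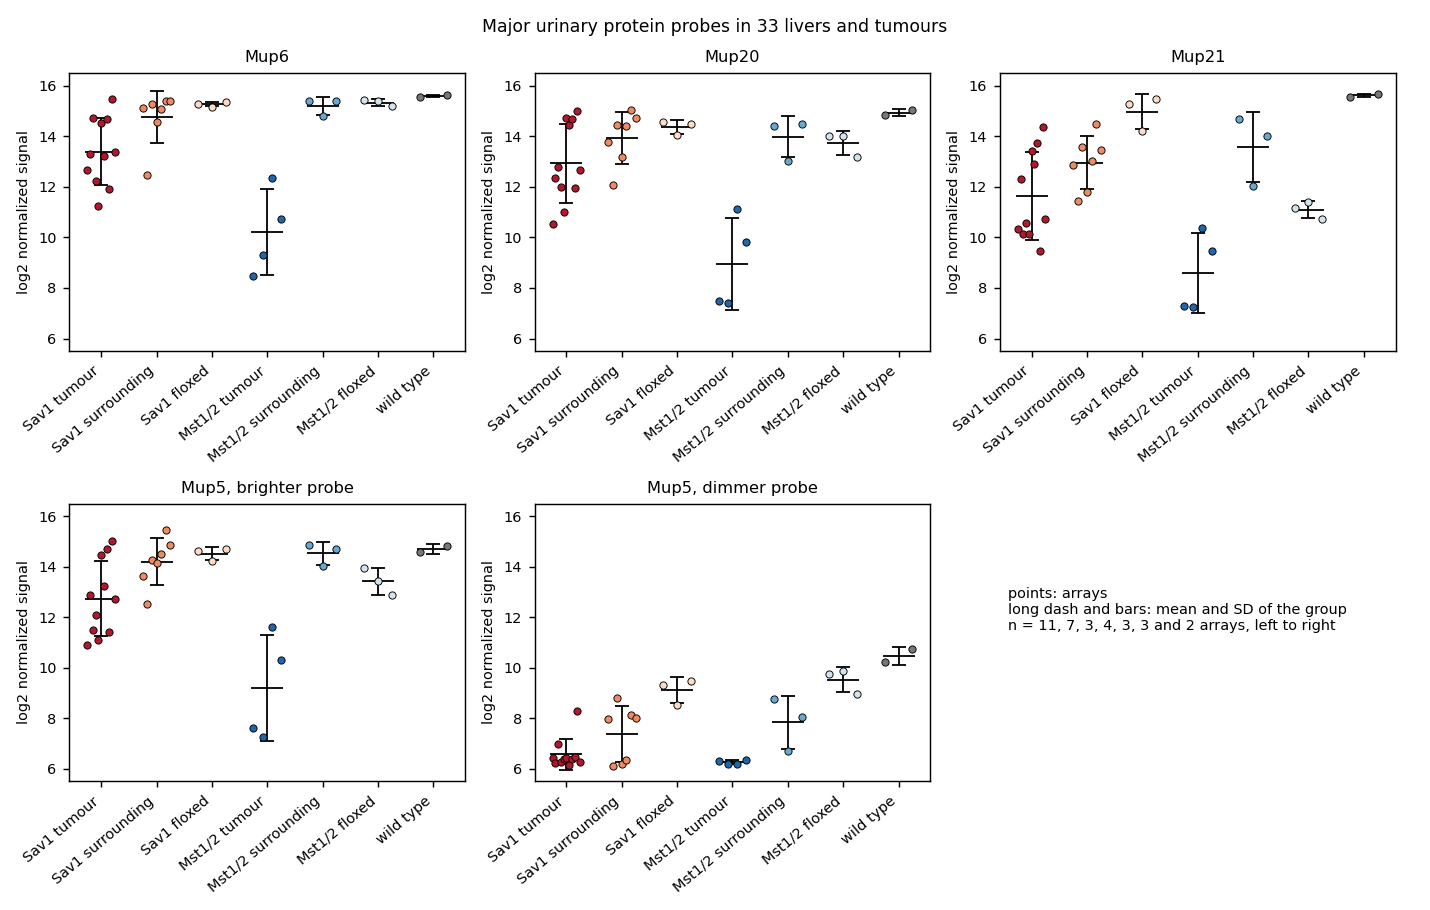
Log2 level (normexp corrected and quantile normalised) of each Mup probe on every array, by group, with points for arrays and bars for the group mean and SD. The 4 Mst1/2 -/- tumours lie below the Mst1/2 -/- surrounding and Mst1/2 flox livers for all 5 probes, and the 11 Sav1 -/- tumours are widely spread.

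In order of the mean log2 level over the 5 probes, Mst1/2 -/- tumours came lowest at 8.65 ± 1.44 (SD, n = 4), followed by Sav1 -/- tumours at 11.46 ± 1.21 (SD, n = 11). Mst1/2 flox livers stood at 12.62 ± 0.38 (SD, n = 3), Sav1 -/- surrounding livers at 12.65 ± 0.94 (SD, n = 7) and Mst1/2 -/- surrounding livers at 13.02 ± 0.80 (SD, n = 3). Sav1 flox livers averaged 13.65 ± 0.36 (SD, n = 3) and Wt livers 14.27 ± 0.16 (SD, n = 2). The gaps between Mst1/2 -/- surrounding, Sav1 -/- surrounding and Mst1/2 flox livers were smaller than the spread within the surrounding groups. The array means ran from 9.97 to 13.63 in Sav1 -/- tumours and from 7.44 to 10.34 in Mst1/2 -/- tumours. The 2 tumour groups therefore overlapped at their edges.

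The comparison of Mst1/2 -/- tumours with Mst1/2 flox livers asks how the family differs between tumour and normal liver of that line. Xist, the RNA that silences an X chromosome in females, was high in these floxed livers (10.55 to 11.21 on the log2 scale). It was low in the tumours (6.08 to 6.31). A difference of tissue thus cannot be told apart from one of sex here, nor in any other comparison of Mst1/2 -/- samples with these livers. Differences are on the log2 scale with the standard error of limma's fit over all arrays, and a probe is called where limma's adjusted p over 23300 probes is under 0.05. Because the members were chosen with such values in view, their calls are a description. Mup6 averaged 10.22 ± 1.70 in tumours (SD, n = 4) and 15.34 ± 0.13 in floxed livers (SD, n = 3), a difference of -5.12 ± 0.82 (SE), or 34.9-fold lower. Mup20 differed by -4.77 ± 0.94, 27.4-fold lower, and bright Mup5 by -4.22 ± 0.92, 18.7-fold lower. The dim Mup5 probe was at least 8.78-fold lower, a bound set by the lowest signals above background on the tumour arrays. Mup21 differed by -2.50 ± 1.00, 5.67-fold lower, and was the probe not called. In all, 4 of 5 probes were called lower, where 8.67% of all probes were. For all 5 probes every tumour array was below every floxed array, which held for 21.1% of all probes. The median member difference was -4.22, and the median of all probes was -0.02.

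Against their own surrounding livers, the Mst1/2 -/- tumours had 3 of 5 Mup probes called lower, where only 6 of 23300 probes, or 0.0258%, were. Mup6 was 31.4-fold lower (-4.97 ± 0.82, SE), Mup20 32.7-fold lower (-5.03 ± 0.94) and bright Mup5 40.1-fold lower (-5.32 ± 0.92). Mup21 differed by -4.97 ± 1.00, 31.4-fold lower but not called, and dim Mup5 was at least 2.74-fold lower. No tumour overlapped a surrounding liver for any of the 5 probes, a pattern that 7.9% of all probes had. All 5 probes were lower at an unadjusted p under 0.05. The calls rested on few arrays: leaving out tumour 1, tumour 2, surrounding liver 1 or surrounding liver 3 left 0 calls, while the median stayed between -5.69 and -4.53. A fit of only these 2 groups also gave 0 calls. These tumours serve in both comparisons, so the values are not independent of those against floxed livers.

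Mst1/2 -/- surrounding livers differed from Mst1/2 flox livers in both directions. Tissue and sex cannot be told apart here either, because Xist was high only in the floxed livers. The difference was -0.15 ± 0.88 for Mup6, 0.26 ± 1.00 for Mup20, 2.47 ± 1.07 for Mup21, 1.10 ± 0.99 for bright Mup5 and -1.68 ± 0.58 for dim Mup5 (SE). By limma 0 of 5 probes were called, where 1.30% of all probes were called lower and 1.84% higher. At an unadjusted p under 0.05, 1 was lower and 1 higher. In a fit of only these 2 groups, Mup21 (adjusted p = 0.0062) and bright Mup5 (adjusted p = 0.014) were called higher and dim Mup5 (adjusted p = 0.017) lower.

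In the Sav1 line, 3 of 5 probes were called lower in tumours than in Sav1 flox livers, where 18.1% of all probes were. Mup21 averaged 11.65 ± 1.74 in tumours (SD, n = 11) and 14.98 ± 0.68 in floxed livers (SD, n = 3), a difference of -3.33 ± 0.86 (SE) or 10.1-fold. Mup6 was 3.66-fold lower (-1.87 ± 0.70) and dim Mup5 5.79-fold lower (-2.53 ± 0.46). Bright Mup5 (-1.79 ± 0.79) and Mup20 (-1.44 ± 0.80) were not called. The tumours below every floxed liver were 10 of 11 for Mup6 and Mup21, 8 of 11 for bright Mup5, 7 of 11 for Mup20 and 11 of 11 for dim Mup5, the single probe without overlap. The last pattern was met by 7.70% of all probes. The call for Mup6 was near the threshold, with limma's adjusted p between 0.019 and 0.11 as single arrays were left out.

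Sav1 -/- tumours and their surrounding livers overlapped for every Mup probe. The differences were -1.37 ± 0.52 for Mup6, -1.02 ± 0.59 for Mup20, -1.31 ± 0.64 for Mup21, -1.48 ± 0.58 for bright Mup5 and -0.80 ± 0.34 for dim Mup5 (SE). By limma 0 of 5 were called, where 4.90% of all probes were called lower, and 4 of 5 were lower at an unadjusted p under 0.05. Without tumour 10, the brightest for Mup6, 2 of 5 were called, and without surrounding liver 2, the dimmest, 1 was. Between Sav1 -/- surrounding and Sav1 flox livers, 1 of 5 probes was called lower, where 6.72% of all probes were. That was dim Mup5 (-1.74 ± 0.49, SE), whose call was lost without any single Sav1 flox array. Mup21 differed by -2.02 ± 0.91, Mup6 by -0.50 ± 0.75, Mup20 by -0.42 ± 0.85 and bright Mup5 by -0.31 ± 0.83, none called. The 3 Sav1 comparisons share samples.

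The 33 arrays were divided into 3 sets by the correlation of signals over 12360 probes never above background, a grouping no label gives. How far the results depend on the number of sets was not tested. One set held the 3 Sav1 flox livers, 3 Sav1 -/- surrounding livers and 3 Sav1 -/- tumours. Another held 6 Sav1 -/- tumours with all Mst1/2 and Wt arrays. The third held 4 Sav1 -/- surrounding livers and 2 Sav1 -/- tumours. With the set as a block, the median Mup difference between Sav1 -/- tumours and floxed livers was -2.78 with 5 of 5 probes called, and within the set that holds both groups it was -2.56 with 3 called. For Sav1 -/- tumours against surrounding livers it was -2.15 with 2 called under the block, and -1.54 with 0 called and -2.83 with 3 called within the sets that hold both. For surrounding against floxed livers it was -0.69 under the block and -1.04 within the set, with 0 called in the set. The comparisons among Mst1/2 groups lay in 1 set. Mst1/2 flox and Sav1 flox livers shared no set, nor did Sav1 flox and Wt livers or the surrounding livers of the 2 lines, so these 3 comparisons have no value within a set. A fit with the set as a block was possible for them because the Sav1 -/- tumours join the set of the Mst1/2 and Wt arrays to the others, and its values stand beside each comparison.

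**Figure D2:**
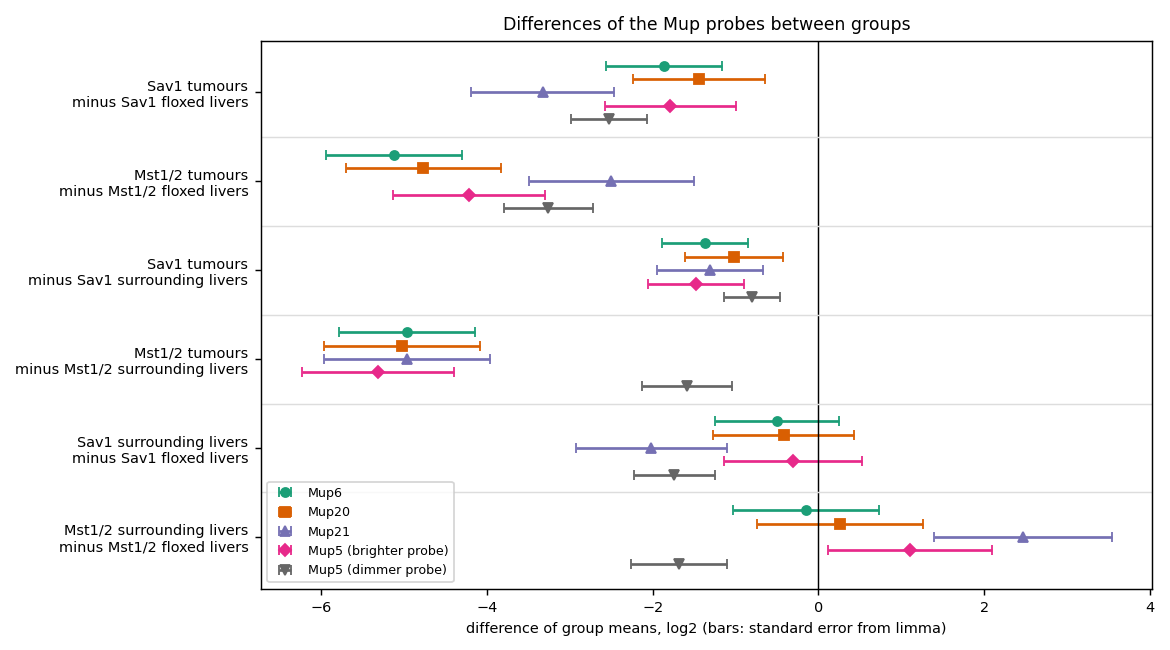
Log2 difference of each Mup probe in the comparisons named on the axis, with bars for the standard error of limma's fit. The differences of the Mst1/2 -/- tumours reach -5.32 for bright Mup5 against surrounding livers, and those of the Sav1 -/- tumours lie between -3.33 and -0.80.

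Tumours of the 2 lines differed from each other in 4 of 5 Mup probes, which were called higher in Sav1 -/- than in Mst1/2 -/- tumours, where 1.42% of all probes were. Mup20 differed by 3.98 ± 0.72 (SE), bright Mup5 by 3.53 ± 0.71, Mup6 by 3.18 ± 0.63 and Mup21 by 3.05 ± 0.77, while dim Mup5 differed by 0.31 ± 0.42. Single tumours of the 2 lines overlapped for every probe. Without Mst1/2 -/- tumour 1, 3 probes were called, without tumour 2, 2 were, and in a fit of only these 15 arrays 0 were. Within the set of arrays that holds both tumour groups, the median was 3.84 with 3 called. The surrounding livers of the 2 lines differed by between -0.62 and -0.03, with 0 of 5 probes called lower by limma and 0 at an unadjusted p under 0.05, where 0.352% of all probes were called. With the shared replicate number as a block, the median was -0.88 and 1 probe was called. The 2 genotypes cannot come from the same animals, so these numbers are not pairs. A block on array set gave a median difference between the surrounding livers of 1.11, of the opposite sign, with 0 called. The difference of the tumour-minus-surrounding differences, Sav1 minus Mst1/2, was 4.01 ± 1.11 for Mup20, 3.85 ± 1.09 for bright Mup5, 3.67 ± 1.19 for Mup21, 3.60 ± 0.98 for Mup6 and 0.79 ± 0.64 for dim Mup5 (SE). None of these passed limma's adjusted threshold, 4 of 5 did at an unadjusted p under 0.05, and 0.0172% of all probes were called higher. Their median was 2.88 under the array-set block, with 0 called.

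Among normal livers, Sav1 flox minus Wt gave differences of -0.33 ± 0.99 for Mup6, -0.57 ± 1.12 for Mup20, -0.65 ± 1.20 for Mup21, -0.18 ± 1.10 for bright Mup5 and -1.37 ± 0.65 for dim Mup5 (SE). By limma 0 of 5 were called, where 1.76% of all probes were called lower, and 1 was lower at an unadjusted p under 0.05. Under the array-set block the median changed sign, 1.14 against -0.57 without the block, with 0 called. Mst1/2 flox livers had Mup21 at 11.10 ± 0.34 (SD, n = 3), against 14.98 ± 0.68 in Sav1 flox livers (SD, n = 3), 14.7-fold lower (-3.88 ± 1.07, SE). It was the 1 of 5 probes called, where 1.31% of all probes were called lower, and the call was lost when any floxed array was left out (limma's adjusted p between 0.064 and 0.13). Mup20, Mup21 and bright Mup5 were lower in every Mst1/2 flox than in every Sav1 flox liver, a pattern that 14.1% of all probes had. Mup6 differed by 0.07 ± 0.88. Under the array-set block, Mup21 differed by -5.66 and was still the 1 probe called (limma's adjusted p = 0.017), Mup6 differed by -0.86, and the median member difference was -2.98 against -0.64 without the block.

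Within each array, the log2 level of Mup21 minus that of Mup6 showed the same departure. It was -4.24 ± 0.24 in Mst1/2 flox livers (SD, n = 3), against -0.30 ± 0.60 in Sav1 flox livers (SD, n = 3) and 0.02 ± 0.01 in Wt livers (SD, n = 2). The knockout groups lay between: -1.75 ± 1.19 in Sav1 -/- tumours (SD, n = 11), -1.82 ± 0.66 in Sav1 -/- surrounding livers (SD, n = 7), -1.62 ± 0.44 in Mst1/2 -/- tumours (SD, n = 4) and -1.62 ± 1.04 in Mst1/2 -/- surrounding livers (SD, n = 3). Single Sav1 -/- tumours ran from -4.59 to -0.32. The lowest was tumour 3, singled out after its values were seen, with a signal of 24170 for Mup6 and 1007 for Mup21. Xist averaged 10.91 ± 0.33 on the log2 scale in Mst1/2 flox livers, against group means between 6.12 and 6.30 in the other 6 groups. The Y-linked gene Eif2s3y averaged 6.10 ± 0.06 in Mst1/2 flox livers and 11.47 in Sav1 flox livers. High Xist with low Eif2s3y thus marked the Mst1/2 flox livers and not the Mst1/2 -/- groups set against them. Low Eif2s3y alone did not, as Wt livers read 6.70 and 6.99. In Wt livers Kdm5d, another Y-linked gene, read 8.33 and 7.56, against 6.09, 6.29 and 6.04 in Mst1/2 flox livers. The part of sex in the Mup21 difference was not tested, and with Sav1 flox livers as control, Mup21 differed by -6.38 in Mst1/2 -/- tumours.

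**Figure D3:**
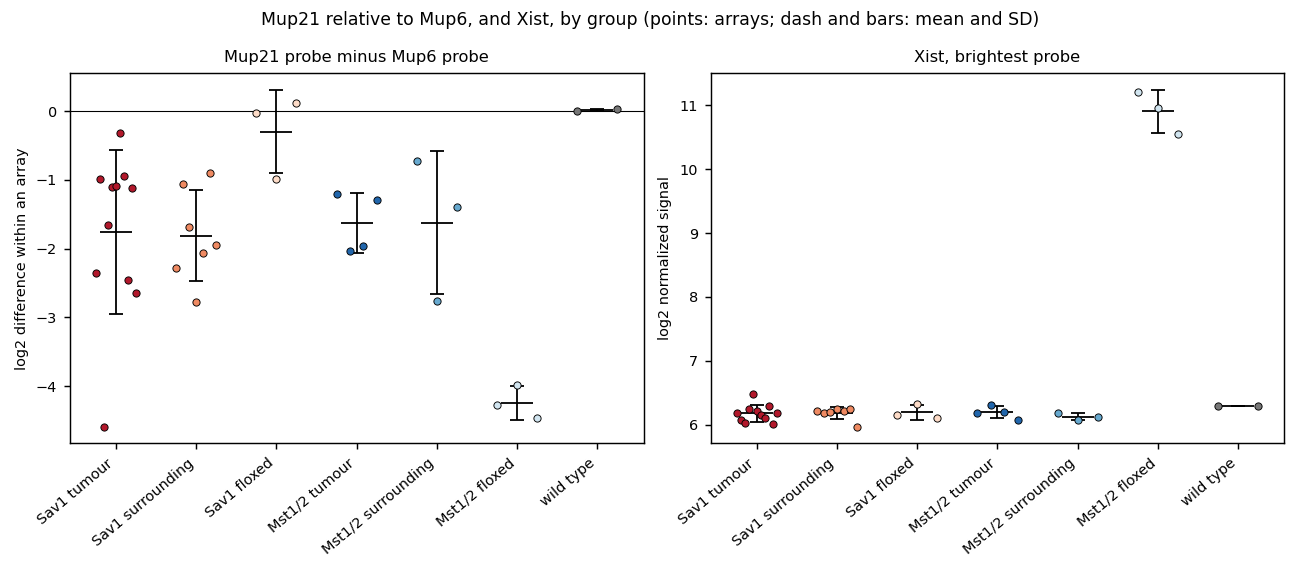
Log2 level of Mup21 minus that of Mup6 within each array (left) and log2 level of Xist (right), by group, with points for arrays and bars for the mean and SD. The 3 Mst1/2 flox livers have Xist between 10.55 and 11.21 and a Mup21 minus Mup6 value between -4.47 and -3.99.

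The members moved together from array to array. Over the 33 arrays, the 4 bright probes correlated with Pearson's r between 0.828 for Mup6 with Mup21 and 0.971 for Mup20 with Mup5. After subtraction of group means, r was between 0.767 and 0.939. The dim Mup5 probe correlated less, with r between 0.532 and 0.665 and, at 0.532, least with the other Mup5 probe. Among the 11 Sav1 -/- tumours alone, r was 0.950 for Mup21 with bright Mup5 and 0.727 for Mup6 with Mup21. These points share arrays, groups and perhaps transcripts, so the coefficients are descriptions.

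The array also holds 3 probes for Mup2 and 1 for Mup3, which are not members. In Mst1/2 -/- tumours, 4 of 4 were called lower than in floxed livers, where 8.67% of all probes were. The differences were -4.22 ± 1.04, -4.48 ± 1.04 and -7.08 ± 1.58 for Mup2 and -3.92 ± 0.93 for Mup3 (SE). In Sav1 -/- tumours 3 of 4 were, where 18.1% of all probes were, with Mup3 at -2.57 ± 0.79. Against surrounding livers, 0 of 4 were called in Mst1/2 -/- tumours, with differences between -4.80 and -3.60, where 0.0258% of all probes were called lower. In Sav1 -/- tumours 1 of 4 was called lower than in surrounding livers, Mup3 (-2.02 ± 0.59), where 4.90% of all probes were.

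By a rule that takes the extremes of Pearson's r with the mean of the 5 Mup probes over 33 arrays, the genes most like the family were Ces1f (0.894), Ugt2b1 (0.881), Ces3b (0.853), Ugt2a3 (0.852), Sult2a8 (0.842) and Ces3a (0.819). The Ces genes encode carboxylesterases that cleave esters of drugs and lipids, the Ugt genes encode enzymes that attach glucuronic acid, and Sult2a8 encodes a sulfotransferase. The median r over 14030 ranked genes was 0.006 and the 99th percentile 0.685. The lowest were Slc23a3 (-0.836), Il7 (-0.834) and Slc41a3 (-0.825). Slc23a3 and Slc41a3 are solute carrier genes, and Il7 encodes a cytokine that lymphocytes need. Ranked on deviations from group means, the 6 highest were Ces1f (0.811), Omd (0.759), Zdhhc19 (0.733), Ugt2b1 (0.728), Camk2n1 (0.719) and Sult2a8 (0.716). Zdhhc19 was near background, with signals between 74 and 115 units, and was above it on 3 of 11 Sav1 -/- tumours. By Spearman's coefficient Ces1f ranked 9 and Keg1 ranked 1.

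Of the 6 genes with the highest r, 6 were lower in Mst1/2 -/- tumours and 5 in Sav1 -/- tumours than in floxed livers by limma. Their choice by likeness fixes this direction in part, and 8.67% and 18.1% of all probes were lower. Against surrounding livers, only Ugt2a3 and Sult2a8 of the 6 were called lower in Sav1 -/- tumours, and none in Mst1/2 -/- tumours. The 3 with the lowest r were higher than in floxed livers in tumours of both lines, where 8.75% (Mst1/2 -/-) and 15.3% (Sav1 -/-) of all probes were. Ces1f averaged 8.16 ± 1.05 in Mst1/2 -/- tumours (SD, n = 4) and 13.85 ± 0.13 in Mst1/2 flox livers (SD, n = 3), a difference of -5.68 ± 1.16 (SE). In the Sav1 line it averaged 10.43 ± 2.28 in tumours (SD, n = 11) and 13.89 ± 0.15 in floxed livers (SD, n = 3), a difference of -3.46 ± 0.99. Sult2a8 differed by -6.51 ± 1.15 in Mst1/2 -/- tumours and by -5.29 ± 0.98 in Sav1 -/- tumours against floxed livers. It was above background on 2 of 4 Mst1/2 -/- tumours and 9 of 11 Sav1 -/- tumours. Il7 was higher, by 2.08 ± 0.54 in Mst1/2 -/- tumours and 2.02 ± 0.46 in Sav1 -/- tumours. It was above background on 0 of 3 Sav1 flox arrays. The sizes of differences that involve signals near background are not exact. In Sav1 -/- tumours the difference of Ugt2b1 was -1.66 ± 0.72 and did not pass the limma test (adjusted p = 0.075), while with the array set as a block it did (-2.40, adjusted p = 0.043).

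**Figure D4:**
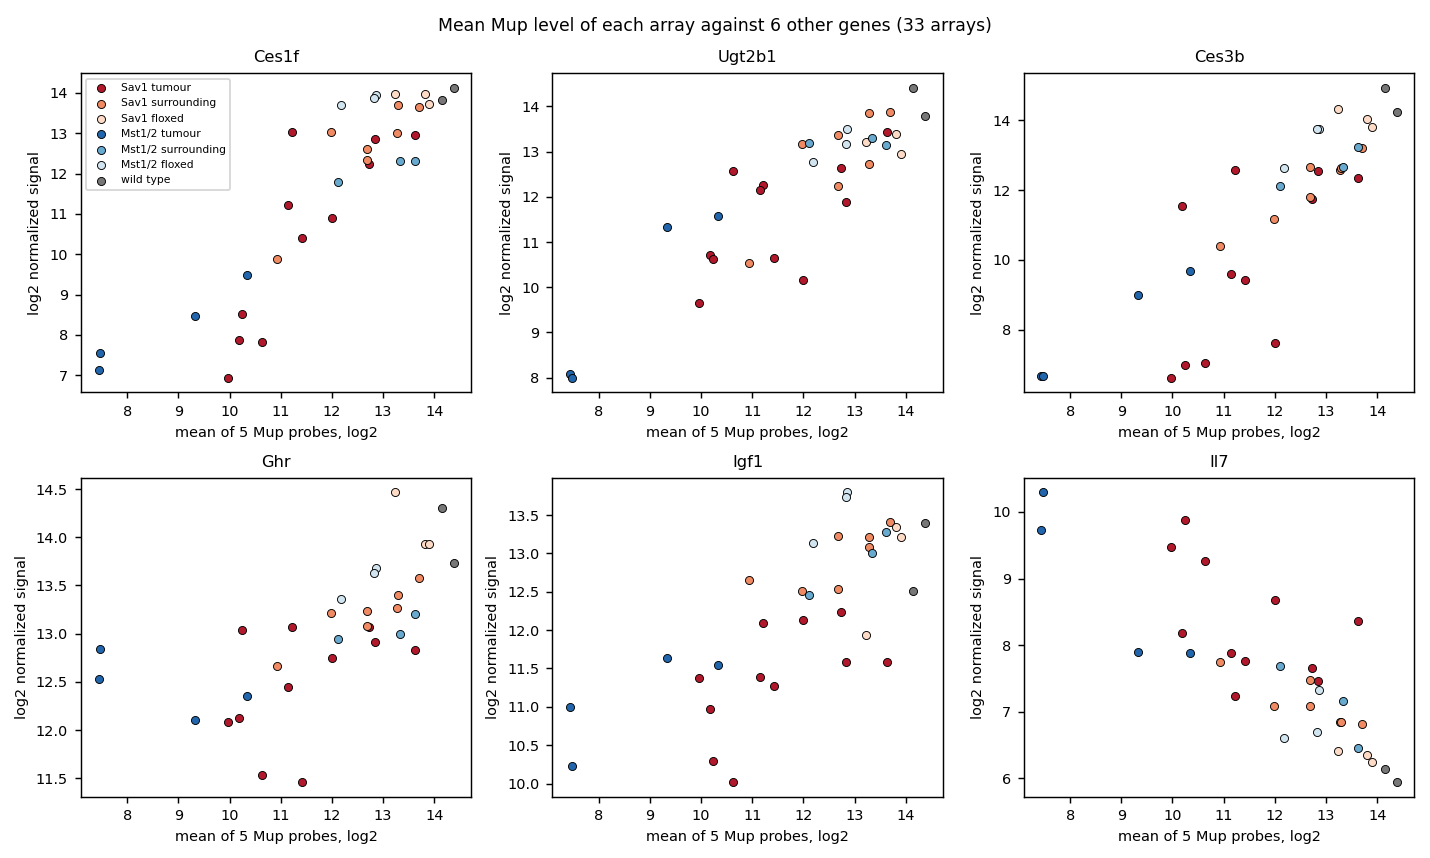
Log2 level of Ces1f, Ugt2b1, Ces3b, Ghr, Igf1 and Il7 (vertical axes) against the mean log2 level of the 5 Mup probes (horizontal axes), with 1 point per array coloured by group. Ces1f rises with the Mup mean (r = 0.894) and Il7 falls (r = -0.834).

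Growth hormone signalling to STAT5 drives Mup transcription. Of 15 measured genes of this pathway, 3 were lower and 2 higher in Mst1/2 -/- tumours than in floxed livers by limma, where 8.67% of all probes were called lower and 8.75% higher. The growth hormone receptor gene Ghr differed by -1.10 ± 0.32 (SE, adjusted p = 0.017), the liver hormone Igf1 by -2.46 ± 0.44 (adjusted p = 0.00031) and Igfals, its carrier in the blood, by -1.54 ± 0.53 (adjusted p = 0.043). The feedback inhibitors Socs3 (3.22 ± 0.48, adjusted p = 3.8e-05) and Cish (1.73 ± 0.57, adjusted p = 0.035) were higher. In Sav1 -/- tumours 3 were lower and 2 higher, near the background of 18.1% of all probes called lower and 15.3% higher. Ghr differed by -1.63 ± 0.27 (adjusted p = 6.5e-05), Igf1 by -1.47 ± 0.38 (adjusted p = 0.0036), Igfals by -2.77 ± 0.45 (adjusted p = 5e-05), Socs3 by 2.43 ± 0.41 (adjusted p = 7e-05) and the phosphatase gene Ptpn1 by 1.68 ± 0.43 (adjusted p = 0.0038). With the array set as a block, the call for Ptpn1 was lost (adjusted p = 0.2) and the other 4 held. The kinase Jak2 and Stat5a were not called in either tumour group. The median of the list was 0.22 in Mst1/2 -/- tumours and 0.26 in Sav1 -/- tumours, against 0 and 0.05 over all genes. Compared with surrounding livers, 0 of 15 were called in Mst1/2 -/- tumours and 2 passed an unadjusted p under 0.05. In that comparison 6 of 23300 probes were called lower. In Sav1 -/- tumours 3 were lower and 0 higher than in surrounding livers, where 4.90% of all probes were lower.

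In surrounding livers, where the bright Mup probes were not called lower, Socs3 was higher in both lines, by 1.88 ± 0.51 in Mst1/2 -/- (limma adjusted p = 0.039) and 2.22 ± 0.43 in Sav1 -/- (adjusted p = 0.0023). Higher calls made up 4.28% of all probes in Sav1 -/- surrounding livers. Ghr was lower in Sav1 -/- surrounding livers (-0.90 ± 0.29, adjusted p = 0.041), a call lost with the array set as a block (adjusted p = 0.059). Igf1 was not called there. Across the 33 arrays, r with the Mup mean was 0.748 for Igf1, 0.656 for Ghr, 0.545 for Igfals and -0.675 for Socs3.

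Of 10 measured regulators of Mup transcription, 1 was lower and 1 higher in Mst1/2 -/- tumours than in floxed livers by limma. This was near the 8.67% of all probes called lower and 8.75% higher. In Sav1 -/- tumours 3 were lower, and 2 with the array set as a block, where 18.1% of all probes were lower. Foxa2, a hepatocyte transcription factor, was lower in tumours of both lines. Its differences were -0.73 ± 0.23 in Mst1/2 -/- (SE, limma adjusted p = 0.025) and -0.96 ± 0.19 in Sav1 -/- (adjusted p = 0.00049). Cebpa, which encodes the hepatocyte factor C/EBPα, was lower in Sav1 -/- tumours (-1.87 ± 0.35, adjusted p = 0.00024) and was not called in Mst1/2 -/- tumours (-0.48 ± 0.42, adjusted p = 0.47). Foxa3 was higher in Mst1/2 -/- tumours (1.29 ± 0.27, adjusted p = 0.0012). Thrb, a thyroid hormone receptor gene, was lower in Sav1 -/- tumours (-0.33 ± 0.13, adjusted p = 0.048), a call lost under the array-set block. Zhx2 and Hnf4a were not called in tumours of either line. Compared with surrounding livers, 0 of 10 regulators were called in Mst1/2 -/- tumours and 1 was lower in Sav1 -/- tumours.

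Of 20 measured genes with male-biased expression in mouse liver, 9 were lower in Sav1 -/- tumours than in floxed livers, where 18.1% of all probes were, and 8 in Sav1 -/- surrounding livers, where 6.72% were. None was higher, and 11 and 12 did not pass the test. The steroid enzyme gene Hsd3b5 differed by -7.19 ± 0.79 in tumours (limma adjusted p = 2.2e-07) and by -6.14 ± 0.84 in surrounding livers (adjusted p = 4.7e-05). Elovl3, a fatty acid elongase gene, differed by -4.55 ± 0.38 in tumours and -4.10 ± 0.40 in surrounding livers. With the array set as a block, 10 and 5 genes were lower. In Mst1/2 -/- tumours 5 were lower than in floxed livers, where 8.67% of all probes were, among them the cytochrome P450 gene Cyp2d9 (-2.75 ± 0.87, adjusted p = 0.028), and in Mst1/2 -/- surrounding livers limma called 0 (2 at an unadjusted p under 0.05). Of 17 female-biased genes, 9 were lower in Mst1/2 -/- tumours, where 8.67% of all probes were. In Mst1/2 -/- surrounding livers 8 were lower and 1 higher, where 1.30% of all probes were lower and 1.84% higher. The floxed livers in these comparisons are those with the high Xist. In Sav1 -/- tumours 3 female-biased genes were lower and 1 higher, where 18.1% of all probes were lower and 15.3% higher. In Sav1 -/- surrounding livers 2 were lower and 1 higher, where 6.72% of all probes were lower and 4.28% higher. Tumours were also set against surrounding livers. In Mst1/2 -/- tumours limma then called 0 genes of either list, with 8 male-biased and 3 female-biased at an unadjusted p under 0.05. In Sav1 -/- tumours 4 male-biased and 3 female-biased genes were then lower, where 4.90% of all probes were.

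Against Sav1 flox livers, Mst1/2 flox livers had 6 of 20 male-biased genes lower and 9 of 17 female-biased genes higher, where 2.33% of all probes were called higher. Hsd3b5 differed by -5.93 ± 0.99 (limma adjusted p = 0.00086), the female-biased Cyp17a1 by 4.88 ± 0.60 (adjusted p = 1.2e-05) and Sult2a2 by 6.97 ± 1.07 (adjusted p = 0.00032). Lower calls made up 1.31% of all probes. The Xist and Y-linked levels of these livers differed in the same comparison, and the 2 groups shared no array set. With the set as a block, 4 male-biased genes were lower and 6 female-biased genes higher, and Hsd3b5 (-6.28, adjusted p = 0.008), Cyp17a1 (5.56, adjusted p = 3.7e-05) and Sult2a2 (8.01, adjusted p = 0.0016) kept their calls.

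Genes of other secreted liver proteins had a median difference of -0.04 in Mst1/2 -/- tumours and -0.11 in Sav1 -/- tumours against floxed livers, beside Mup medians of -4.22 and -1.87. Of 21 measured plasma protein genes, 0 were called in Mst1/2 -/- tumours against floxed livers by limma (1 at an unadjusted p under 0.05), and 2 were lower in Sav1 -/- tumours. These were Plg, which encodes plasminogen (-0.95 ± 0.24, adjusted p = 0.0034), and Apob, a lipoprotein gene (-0.77 ± 0.29, adjusted p = 0.041). Among 15 measured lipocalins, the family to which Mup proteins belong, Lcn2, an iron-scavenging acute phase protein, was higher in tumours of both lines, by 2.96 ± 0.76 in Mst1/2 -/- (adjusted p = 0.0071) and 5.58 ± 0.65 in Sav1 -/- (adjusted p = 4.9e-07). Of the other lipocalins, 3 were lower in Mst1/2 -/- tumours, where 8.67% of all probes were, and 5 in Sav1 -/- tumours, where 18.1% were. With the array set as a block, 2 lipocalins and 1 plasma protein gene were lower in Sav1 -/- tumours. Compared with surrounding livers, 0 genes of either list were called in Mst1/2 -/- tumours. In Sav1 -/- tumours 5 lipocalins and 0 plasma protein genes were lower than in surrounding livers, where 4.90% of all probes were.

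Hepatocyte markers, which check the labelled tissue, were lower in part in the tumours. Beside all counts of markers against floxed livers stand the shares over all probes, and several counts are near them. These shares were 8.67% lower and 8.75% higher in Mst1/2 -/- tumours and 18.1% lower and 15.3% higher in Sav1 -/- tumours. Of 11 measured, 4 were lower in Mst1/2 -/- tumours and 3 in Sav1 -/- tumours against floxed livers, with 0 higher. Their summed level ran from 114445 to 170527 in Mst1/2 -/- tumours, against 150270 to 173999 in surrounding and 201398 to 214113 in floxed livers. In the Sav1 line it ran from 103046 to 174674 in tumours, against 159938 to 193260 in surrounding and 199798 to 215149 in floxed livers. No marker could read 0, because the background correction adds an offset of 50 to every signal. Of 9 macrophage markers, 3 were higher and 1 lower in Mst1/2 -/- tumours, and 5 higher and 3 lower in Sav1 -/- tumours. Their summed level ran from 18310 to 26841 in Mst1/2 -/- tumours against 9208 to 10031 in floxed livers, and from 9643 to 42037 in Sav1 -/- tumours against 5588 to 9794 in floxed livers. Of 9 stellate and matrix markers, 2 were higher in Mst1/2 -/- tumours, and 4 higher and 1 lower in Sav1 -/- tumours. With the array set as a block, the higher calls in Sav1 -/- tumours were 3 macrophage and 2 stellate and matrix markers. In Mst1/2 -/- tumours 2 of 5 biliary markers were higher, 1 of 8 endothelial markers was lower and 0 of 6 lymphocyte markers were called. In Sav1 -/- tumours 1 biliary and 2 lymphocyte markers were higher and 2 endothelial markers lower. Compared with surrounding livers, limma called 0 markers of any of these lists in Mst1/2 -/- tumours, where 6 of 23300 probes were called lower. In Sav1 -/- tumours 4 hepatocyte, 4 macrophage, 4 endothelial and 3 stellate and matrix markers were lower than in surrounding livers. Higher than there were 1 stellate and matrix, 1 biliary and 0 macrophage markers. Of all probes, 4.90% were lower and 5.33% higher. The part of these cell types in the Mup differences was not tested.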

How the data were processed

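Total RNA was extracted with the mirVana kit and labelled as biotin cRNA, per the labels' protocols. The authors deposited linear probe intensity values for 33 arrays, exported with BeadStudio per the submitters' processing notes, and a log2 matrix of those arrays. The deposited log2 values equalled quantile-normalised log2 signals to within 0.005, with no background correction and no centring (median of each column 6.566). No detection p-value was present in the files used, so the planned neqc gave way to limma's normexp (offset 50) and quantile normalisation, and background was the 99th percentile of each array's mirrored lower distribution. Probes with 1 gene symbol numbered 34885, with several 18 and with none 10378. Filtering on background (3 or more arrays) left 23300 probes of 14036 genes, which entered 1 limma fit (limma 3.58.1, R 4.3.3) with a mean per group and Benjamini-Hochberg adjustment, threshold 0.05. Figures were drawn with matplotlib 3.10.9 under Python 3.11.15. A list gene is represented by its brightest kept probe. The fit was tested on simulated data.

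Groups follow the genotype and tissue labels. The members and gene lists were chosen with earlier results of these data known. Genes named were all Mup probes, Xist and Y-linked genes, the measured growth hormone and regulator genes, up to 4 called members of each other list with the largest differences, and genes with extreme correlation with the Mup mean. The normalisation, the dim-probe filter, 1 probe per gene, the arrays fitted, the array set, the replicate number, each array in turn and the floxed control were varied. A block on array set for the lists, and for comparisons of groups that share no set, was added after the data were seen. Replicate numbers were checked as pairs by the correlation of deviations from group means: surrounding livers of the 2 lines reached between 0.175 and 0.307, although they cannot be the same animals, and no other comparison had every pair above 0.1. Promoters came from RefSeq tables of GRCm38.p6. The number of arrays limits the precision.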

Additional observations from a re-analysis of the deposited data

Results flagged for a closer look

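The Mup6 level of Sav1 -/- surrounding liver 2 was 12.49 on the log2 scale, far below the other 6 surrounding livers, which ran from 14.58 to 15.40. The gap to its nearest neighbour, divided by the range of the group, was above Dixon's critical value, which chance alone passes in about 1 of 20 groups. Without this array the comparison of Sav1 -/- tumours with surrounding livers had 1 of 5 Mup probes called.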

How the results depend on the processing

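Medians of the 5 Mup probe differences were recomputed under the alternatives that applied to each comparison, 46 in all, and counts of probes called lower under 4 of them. Of the medians, 169 moved by less than the pooled SD of 1.04. For Mst1/2 -/- tumours against floxed livers the median was -5.32 with Sav1 flox livers as control and -5.41 with the mean of Sav1 flox and Wt livers, and within 1 array set Sav1 -/- tumours differed from surrounding livers by -2.83. For Mst1/2 -/- surrounding livers the median changed sign, to -0.02 without Mst1/2 flox replicate 6, -0.39 with Sav1 flox livers and -0.67 with the mean of Sav1 flox and Wt livers as control. Leaving out each array in turn gave medians from -2.08 to -1.66 (Sav1 -/- tumours against floxed), -0.61 to -0.13 (Sav1 -/- surrounding against floxed), -1.58 to -1.05 (Sav1 -/- tumours against surrounding), -5.03 to -3.57 (Mst1/2 -/- tumours against floxed), -0.02 to 0.73 (Mst1/2 -/- surrounding against floxed), -5.69 to -4.53 (Mst1/2 -/- tumours against surrounding), -0.81 to -0.36 (Mst1/2 flox against Sav1 flox), -0.67 to -0.28 (Sav1 flox against Wt), 2.61 to 3.89 (tumours of the 2 lines) and -0.63 to -0.05 (their surrounding livers).

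Median scaling without quantile normalisation, in the order Sav1 -/- tumours and surrounding, Mst1/2 -/- tumours and surrounding, each against floxed livers, Mst1/2 flox against Sav1 flox, and Sav1 flox against Wt, left 1214, 161, 789, 92, 18 and 68 probes called lower, against 4216, 1565, 2020, 302, 306 and 411. The median of all probes then moved to 0.20, 0.14, 0.12 and 0.11 in the knockout comparisons and to -0.11 for Sav1 flox against Wt, and lower calls made up 16.1%, 9.98%, 19.3% and 14.1% of the calls in the knockout comparisons, against 54.2%, 61.1%, 49.8% and 41.4%. With 1 probe per gene, which tests fewer features, the counts were 2236, 772, 1263, 192, 180 and 199, and 334 for tumours of the 2 lines, against 681. With no filter on dim probes Mst1/2 flox livers had 587. The causes were not tested.

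With the array set as a block, added after the data were seen, the median was -2.98 for Mst1/2 flox against Sav1 flox livers, where Mup6 changed sign (-0.86). The block turned the median to 1.14 for Sav1 flox against Wt livers, where Mup6, Mup20, Mup21 and bright Mup5 were 0.60, 1.76, 1.14 and 1.98, and to 1.11 between surrounding livers, where they were 0.66, 2.09, 1.11 and 1.47. None of these probes was called with or without it. The causes were not tested.

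Other single probes changed sign too. Bright Mup5 in Sav1 -/- surrounding against floxed livers was 0.01 under median scaling. Mup20 between surrounding livers of the 2 lines was 0.09 under median scaling and ran from -0.51 to 0.28 as single arrays were left out, above 0 in 4 cases (0.09, 0.19, 0.21 and 0.28). In Mst1/2 -/- surrounding livers, Mup20 was -0.02 without Mst1/2 flox replicate 6, Mup6 was 0.05 without surrounding replicate 2 (-0.25 to 0.05 over all single arrays left out), Mup20 and Mup21 were -0.39 and -1.40 with Sav1 flox livers as control, and Mup20, Mup21 and bright Mup5 were -0.67, -1.73 and -0.08 with the mean control.

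With a replicate block the medians were -2.56 and -1.04 for Sav1 -/- tumours and surrounding against floxed livers, -1.55 for Sav1 -/- tumours against surrounding, -5.26 for Mst1/2 -/- tumours against surrounding and 2.65 between tumours, with 1, 0, 1, 0 and 0 probes called. Same-numbered Sav1 -/- tumours and surrounding livers correlated between 0.073 and 0.686, and the numbers were not taken as pairs. Replicates 1, 2 and 3 reached 0.595, 0.686 and 0.616, each highest with its own number, as was replicate 5 (0.267). Replicates 4, 6 and 7 were not. Replicates 1, 2 and 3 of both groups also lay in the same array set. The main fit treats all these arrays as independent. Signals near background give only bounds, as for dim Mup5.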

Other observations

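Y-linked genes varied among the Sav1 -/- tumours. Eif2s3y ran from 7.51 to 12.22 on the log2 scale in the 11 tumours, and Kdm5d, a Y-linked histone demethylase gene, from 6.00 to 8.36. Xist stayed between 6.01 and 6.48 in the same tumours. In Wt livers, Eif2s3y read 6.70 and 6.99 and Kdm5d 8.33 and 7.56, with Xist at 6.30 in both.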
